A study of Mus musculus with 4 samples.

Results

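Transcripts of 41 genes for lysosomal enzymes, membrane proteins, proton pump subunits and regulators were followed in mouse BV-2 cells, of 23783 genes with a symbol in the deposited count table. They were taken by symbol from a list of known lysosome genes, and each was represented by its most abundant RefSeq transcript record. BV-2 is an immortalised microglial line, so it is a single line and not primary microglia, although the growth text also speaks of shaking mixed glial cultures. The compared groups were BV-2 cells treated with lipopolysaccharide (LPS), the endotoxin of Gram-negative bacteria, at 10 ng/ml for 4 h, and control BV-2 cells of the same time label, with 2 libraries each. The labels name no genotype, passage or other agent for either group, and do not state whether libraries of 1 group were separate cultures. The p-values therefore measure only the spread between these libraries, which may be technical. The comparison asks how a microglial line answers LPS.

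Lysosomes are acidic organelles in which cells break down proteins, glycans and lipids that arrive by endocytosis, phagocytosis and autophagy. A proton pump in their membrane, the V-ATPase, keeps them acidic, and membrane proteins such as LAMP1 shield that membrane from the enzymes inside. In microglia, the phagocytes of the brain, lysosomes clear debris and process antigen, and inherited loss of many of these enzymes causes storage diseases. Transcription factors of the MiT/TFE family, among them TFEB, are known to drive many lysosomal genes together.

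Library totals were 3368693 and 3082538 counts with LPS and 2778686 and 3059196 counts in controls, of which 1423391 and 1327707 with LPS and 902176 and 1425303 in controls lay outside the 5 most abundant records. Of 10 microglia and macrophage markers, 5 passed the filter on low counts (Tyrobp, Spi1, Adgre1, Fcgr3 and Csf1r). Itgam, with 2 records in the table, had 0 counts in every library. The most abundant records of Trem2, also with 2 records, and Ptprc, with 3, had 1 count in all and at most 5 counts in a library. Cx3cr1 and Aif1, with 1 record each, had at most 9 and 7 counts in a library. The summed level of the marker list was 3610.4 and 3597 normalised counts with LPS and 3412 and 3033 in controls, with markers on both sides. Of the 5 tested, Spi1, the gene of the myeloid factor PU.1, rose (log2 fold change 1.15, adjusted p 0.00391), and Adgre1 had 0.46 without passing. The other 3 had both LPS libraries below both controls without passing, with log2 fold changes of -0.68 for Fcgr3 (adjusted p 0.0568), -0.21 for Csf1r and -0.18 for Tyrobp. Markers of astrocytes, oligodendrocytes, neurons and fibroblasts had at most 2 counts in any library, and all 5 oligodendrocyte and all 5 fibroblast markers were listed at 0. The part of these differences in the results below was not tested.

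No lysosome gene on the list passed the test for a change with LPS. Of the 41 genes, 33 passed the filter on low counts, and 0 of these passed edgeR's quasi-likelihood test at an adjusted p of 0.05, where 5.53% of all 6981 records tested did. At an unadjusted p below 0.05 there were 5 of 33 (15.2%), close to the 15.4% of all records. These were Ctsc, with more counts in LPS libraries, and Grn, Laptm5, Man2b1 and Ppt1, with fewer. The DESeq2 Wald test and limma-voom also called 0 of the 33. Over all 6981 records they called 203 and 257 higher and 66 and 105 lower. Log2 fold changes ran from -0.82 to 0.68, with a median of -0.08 against -0.01 over all records and a median size of 0.24 against 0.23. The 95% interval of the change lay within 2-fold in both directions for 24 of the 33 genes, a share to set beside the 60.3% of all records. In bulk RNA, fewer cells that express a gene and less RNA per cell cannot be told apart.

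By position alone, more genes lay lower than higher in the LPS libraries. Both LPS libraries lay below both controls for 13 genes (39.4%, against 21.9% of all records) and above both for 4 (12.1%, against 21.4%), and the groups overlapped for 16. Of 83 tested lysosome genes outside the list, 25.3% lay below both controls and 20.5% above. The list was chosen with earlier results of these data known, and its genes share the same 4 libraries. The lean is therefore described and was not tested. Summed over the 33 genes, the level was 28056 and 26676 normalised counts with LPS and 31310 and 28142 in controls, and without Ctsd, which alone held 28.4% to 34.1% of their counts, it was 19959 and 18993 with LPS and 20640 and 20155 in controls. In both sums the LPS libraries were below the controls. As a share of the counts outside the 5 most abundant records the genes took 2.13% and 2.05% with LPS and 2.47% and 2.34% in controls.

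**Figure D1:**
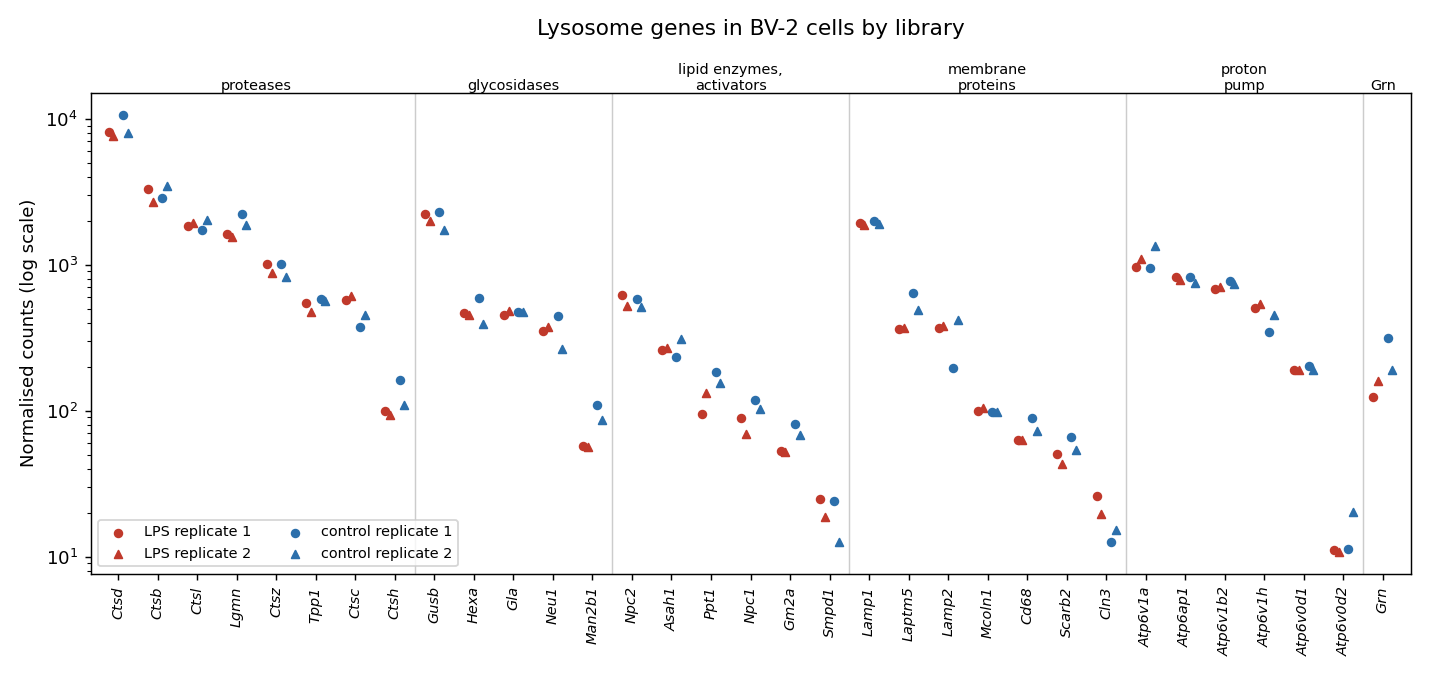
Normalised counts (log scale) of the 33 lysosome genes past the count filter in each library, grouped by role. Red points are the 2 LPS libraries and blue points the 2 control libraries. Ctsd is the highest and Atp6v0d2 the lowest, and for most genes the 4 libraries lie close together on this scale.

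The upstream sequence of several of these genes carries the core of the CLEAR element, the site that MiT/TFE factors are known to bind. That core, CACGTG, reads the same on both strands and is also bound by other basic helix-loop-helix factors such as MYC and USF. In RefSeq windows of 300 bases (250 before to 50 after an annotated start, build GRCm38.p6), CACGTG occurred in 12 of the 34 listed genes with a window (35.3%), against 8.09% of 27025 genes. The longer palindrome TCACGTGA, which contains that core, occurred in 7 (20.6%), against 1.12%. Of 93 lysosome genes outside the list with a window, 22.6% held CACGTG and 8.6% held TCACGTGA. Lamp1 held 4 copies of the core, the most in the list. The stretches below, written 5′ to 3′ on the strand of the gene with CACGTG in capitals, show how the copies lie before the starts of Lamp1 (chr8:13159091-13159160, plus strand), Mcoln1 (chr8:3500439-3500489, plus strand), Gla (chrX:134601185-134601240, minus strand) and Ctsd (chr7:142388057-142388077 and chr7:142387907-142387937, minus strand), a membrane protein, an ion channel, a glycosidase and a protease.
Lamp1: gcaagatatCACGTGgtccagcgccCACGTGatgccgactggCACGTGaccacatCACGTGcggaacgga
Mcoln1: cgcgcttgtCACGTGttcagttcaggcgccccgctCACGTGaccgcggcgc
Gla: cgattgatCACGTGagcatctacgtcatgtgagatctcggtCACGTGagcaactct
Ctsd, farther from the start: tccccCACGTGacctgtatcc
Ctsd, nearer to the start: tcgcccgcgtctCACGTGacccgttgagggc

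Fold changes of genes with and without the core covered overlapping ranges. The 9 tested genes with CACGTG had log2 fold changes from -0.35 to 0.68 with a median of -0.03, and the 17 tested genes with a window and no match ran from -0.82 to 0.52 with a median of -0.10. A gene was counted with the core if any of its windows held it. Lgmn (-0.35) and Cln3 (0.68), the ends of the first range, also have a window without a match, at another annotated start. Lamp1 and Mcoln1, whose upstream stretches are printed above, had log2 fold changes of -0.03 and 0.05. No match says only that these letters are not in this window.

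Among the tested proteases, levels with LPS overlapped those of controls for the 3 with the most counts. Ctsd encodes cathepsin D, an aspartic protease. Genes with 2 or more records were not ranked per transcript length. Among the 30 listed genes with 1 record Ctsd was the highest, at 3710 normalised counts per kilobase with LPS and 4386 in controls. It had 8097 and 7684 normalised counts with LPS and 10670.1 and 7987 in controls, with a log2 fold change of -0.24 (95% interval -0.69 to 0.21, adjusted p 0.723). Control replicate 1 was above the other 3 libraries, and LPS replicate 1 was above control replicate 2, so the groups overlapped. Ctsb, a cysteine cathepsin, had 3304 and 2676 normalised counts with LPS and 2875 and 3445 in controls, with overlapping groups (log2 fold change -0.08, adjusted p 0.934). Ctsl, the cysteine protease cathepsin L, had 1849 and 1933 with LPS and 1723 and 2039 in controls. The LPS values of Ctsl lay between those of the controls, and its 95% interval on the log2 scale ran from -0.39 to 0.40.

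Ctsc (NM_009982, chromosome 7, 88278024 to 88315861 on GRCm38.p6) had the highest fold change of the proteases. It encodes cathepsin C, a dipeptidyl peptidase that activates serine proteases of immune cells, and had 575 and 613 normalised counts with LPS against 373 and 452 in controls. The means were 594 ± 27.0 with LPS and 413 ± 56.3 in controls (SD, n = 2 each). Both LPS libraries were above both controls, but the difference did not pass over all records (log2 fold change 0.52, SE 0.184, 95% interval 0.12 to 0.93, adjusted p 0.173). Ctsh, an aminopeptidase of the cathepsin family, had the lowest fold change, with 99.8 and 93.9 normalised counts with LPS and 162 and 109 in controls (log2 fold change -0.46, adjusted p 0.432). Its LPS libraries lay below both controls, which themselves differed by more than that gap. Lgmn, which encodes legumain, a protease that cuts after asparagine, had 1629.9 and 1561 with LPS and 2219.5 and 1859 in controls (log2 fold change -0.35, adjusted p 0.401). Ctsz and Tpp1, a carboxypeptidase and a tripeptidyl peptidase, had log2 fold changes of 0.04 and -0.17.

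Of the glycosidases, which trim sugar chains from glycoproteins and glycolipids, 4 of the 5 tested had log2 fold changes between -0.10 and 0.07. Gusb, the beta-glucuronidase, had 2243 and 2004 normalised counts with LPS and 2311 and 1728.5 in controls, with overlapping groups. Hexa, the alpha subunit of beta-hexosaminidase, had 469 and 452 with LPS and 596 and 396 in controls. Gla, the alpha-galactosidase, had 454 and 485 with LPS and 474 and 472 in controls, and its interval ran from -0.40 to 0.37. The exception was Man2b1, the acid alpha-mannosidase, with 57.3 and 56.7 normalised counts with LPS against 109.7 and 86.9 in controls. Both LPS libraries were below both controls, and the adjusted p was 0.120 for a log2 fold change of -0.77 (95% interval -1.31 to -0.23).

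Genes of lipid breakdown and cholesterol export had the lowest median of the groups with more than 1 tested gene, a log2 fold change of -0.25 over 6. Npc2, a soluble cholesterol carrier, had 618.5 and 520.3 normalised counts with LPS and 582 and 513 in controls, and Asah1, the acid ceramidase, had 261 and 269 with LPS and 232 and 309.7 in controls. Neither pair of groups was apart. Ppt1, which removes palmitate from proteins, had 95.2 and 133 with LPS against 186 and 154 in controls (log2 fold change -0.57, SE 0.235, adjusted p 0.265), and its annotated span overlaps that of Cap1, which had 1802 counts over the 4 libraries. Npc1, the membrane partner of NPC2, and Gm2a, an activator of ganglioside breakdown, also had both LPS libraries below both controls, with log2 fold changes of -0.46 and -0.51 and adjusted p of 0.416 and 0.386. Smpd1, the acid sphingomyelinase, was low in every library, with 25.0 and 18.6 with LPS and 23.9 and 12.7 in controls.

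Among the tested membrane proteins Lamp1 had the most counts, and its groups overlapped. It had 1939 and 1866 normalised counts with LPS and 1992 and 1895 in controls, and its 95% interval ran from -0.41 to 0.35. Laptm5 (NM_010686, chromosome 4, 130912890 to 130936148), a lysosomal membrane protein of blood and immune cells, had 363 and 369.7 with LPS against 644 and 492 in controls. Its means were 366.5 ± 4.47 with LPS and 568 ± 107.6 in controls (SD, n = 2 each). Both LPS libraries were below both controls, and the difference missed the threshold with the lowest adjusted p of the list (log2 fold change -0.63, SE 0.194, 95% interval -1.05 to -0.20, adjusted p 0.105). Lamp2, which takes part in chaperone-mediated autophagy, had 372 and 381 with LPS and 195.5 and 420.3 in controls, so that control replicate 1 stood apart from the other 3 libraries. Cln3, a membrane protein lost in juvenile Batten disease, had 25.9 and 19.6 with LPS and 12.7 and 15.2 in controls, a log2 fold change of 0.68 with a wide interval of -0.15 to 1.51. Mcoln1, the calcium channel TRPML1, had 98.9 and 104.6 with LPS and 98.5 and 97.9 in controls. Cd68, a macrophage marker of lysosomes and endosomes, and Scarb2, the receptor that carries glucocerebrosidase to lysosomes, had log2 fold changes of -0.35 and -0.34 and did not pass.

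All 6 proton pump genes were tested and none passed. Atp6v1a, the catalytic subunit, had 969 and 1094 normalised counts with LPS and 947 and 1353 in controls, with the LPS values between those of the controls. Atp6ap1, an accessory protein, had 820.1 and 781 with LPS and 829.9 and 753 in controls, and Atp6v1b2, a subunit of the cytosolic head, had 684 and 703 with LPS and 779 and 744 in controls. The highest change was that of Atp6v1h, a regulatory subunit, with 509 and 539 with LPS against 346 and 454 in controls (log2 fold change 0.38, 95% interval -0.04 to 0.81, adjusted p 0.397). Atp6v0d1, a subunit of the membrane part, had 190.5 and 189.7 with LPS and 202.5 and 189.9 in controls. Its relative Atp6v0d2, known from osteoclasts and macrophages, had 12 and 11 raw counts with LPS and 8 and 24 in controls, with an interval of -1.56 to 0.37.

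Grn (NM_008175, chromosome 11, 102430507 to 102436809) had the lowest fold change of the list with all libraries. It encodes progranulin, a secreted and lysosomal protein of microglia whose loss causes frontotemporal dementia in humans, and had 124.8 and 160.4 normalised counts with LPS against 316.5 and 191 in controls. Its means were 143 ± 25.2 with LPS and 254 ± 88.9 in controls (SD, n = 2 each). Both LPS libraries were below both controls, but control replicate 1 was far above control replicate 2, and the adjusted p was 0.121 for a log2 fold change of -0.82 (95% interval -1.39 to -0.24). With 1 library left out the value ran from -1.16, without control replicate 2, to -0.41, without control replicate 1, where Atp6v0d2 (-0.88), Man2b1 (-0.60), Ppt1 (-0.43) and Laptm5 (-0.42) were lower. Tfeb was listed at 0 counts in every library in each of its 3 records.

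**Figure D2:**
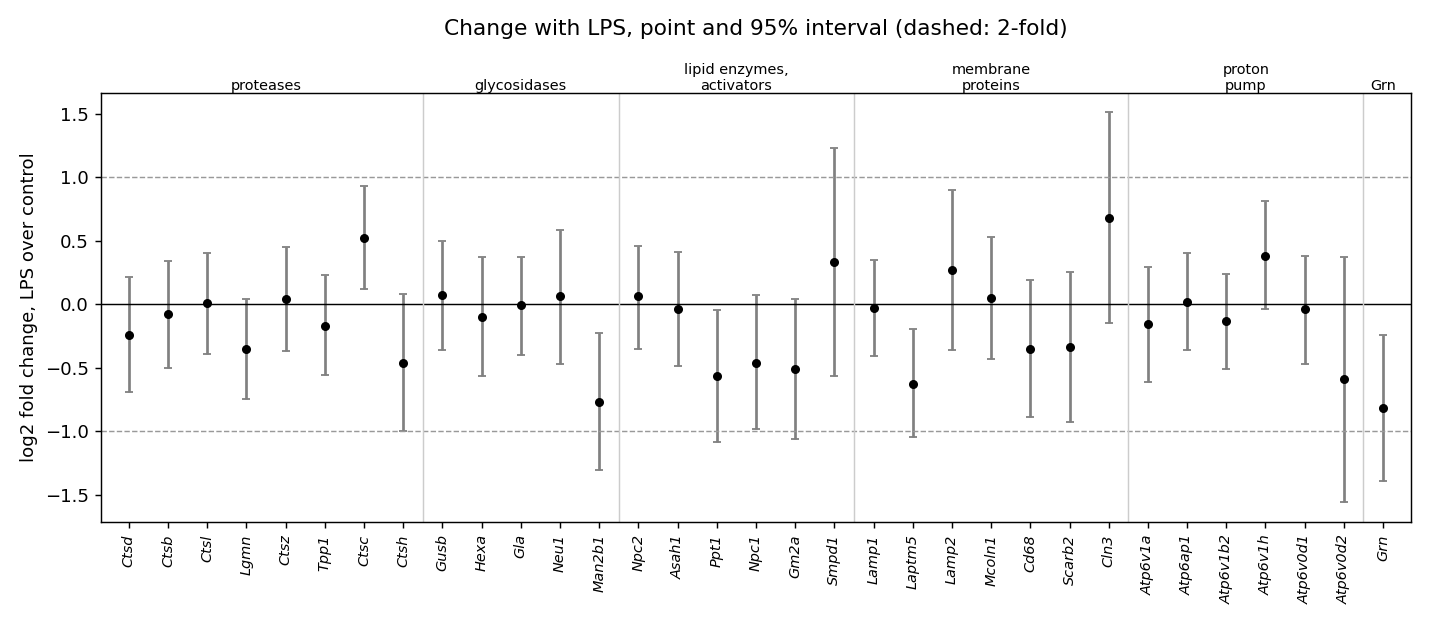
Log2 fold change (LPS over control) of each tested lysosome gene with its 95% interval from edgeR's quasi-likelihood fit, grouped by role, with dashed lines at 2-fold. The values run from -0.82 for Grn to 0.68 for Cln3, and the intervals of 24 of the 33 genes lie between the dashed lines.

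The spread that these tests work against was larger in the control pair and, there, varied with the base composition of the transcripts. The median size of the log2 ratio between replicates over the 33 genes was 0.08 for the LPS pair and 0.29 for the control pair. Across the 33 genes the ratio of replicate 1 to replicate 2 had a Spearman's rho with the GC content of the transcript of 0.20 in the LPS pair and 0.77 in the control pair, a description only, since the genes share the same libraries. Lamp2, with a GC content of 38.7%, had a log2 ratio of -0.04 in the LPS pair and -1.10 in the control pair. Neu1, the sialidase, with 57.0%, had -0.09 and 0.75, from 354 and 377 normalised counts with LPS and 444.5 and 264 in controls. Over all tested records the rho was 0.27 for the LPS pair and 0.66 for the control pair.

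**Figure D3:**
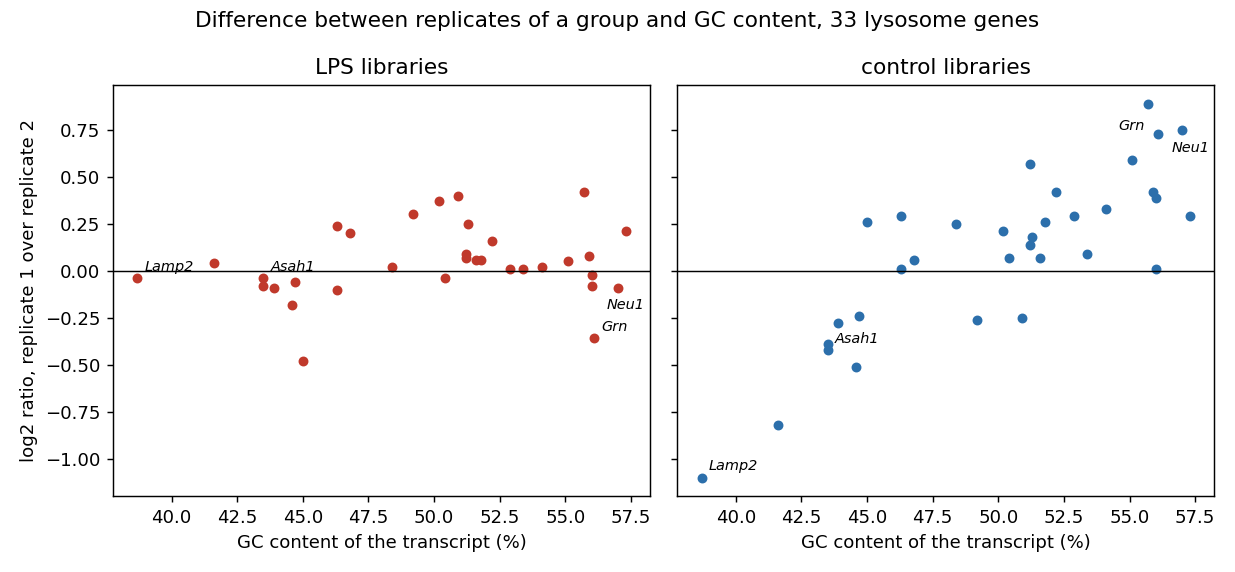
Log2 ratio of replicate 1 over replicate 2 against the GC content (%) of the transcript for the 33 lysosome genes, in the LPS pair (left) and the control pair (right). The LPS ratios scatter around 0, and the control ratios are lowest for Lamp2 (-1.10), at the lowest GC content, and mostly above 0 at high GC content (Neu1 0.75).

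After each library was corrected for GC content and length of the transcripts, 6 of the 33 genes passed (18.2%, against 10.8% of all records), 1 higher (6.63% of all records) and 5 lower (4.17%). Ctsc rose in that fit by 0.42 on the log2 scale (SE 0.114, adjusted p 0.0286). Laptm5 fell with -0.54 (SE 0.116, adjusted p 0.00623), Grn with -0.72 (adjusted p 0.0124), Man2b1 with -0.67 (adjusted p 0.0294), Lgmn with -0.35 (adjusted p 0.0357) and Ppt1 with -0.65 (adjusted p 0.0463). For each of these 6 genes the direction was that of the counts as deposited, in which both LPS libraries lay on 1 side of both controls. Both fits use the same 4 libraries, so the shared direction is no separate support. The fit of the trend was also not charged to the degrees of freedom. Calls also depended on single libraries. Without control replicate 1, 5 of 33 genes passed, against 15.2% of all records, which is the same share, and without control replicate 2, 11 passed, against 18.2%. With LPS replicate 1 left out 0 of 33 passed, against 3.21% of all records, and with LPS replicate 2 left out 0 of 33, against 2.82%, with 0 and 1 genes at an unadjusted p below 0.05. In each of these fits 1 group is a single library assumed to vary like the other group, so the spread came from the LPS pair alone where a control was left out and from the more variable control pair alone where an LPS library was. Their p-values are therefore no separate support for a gene.

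**Figure D4:**
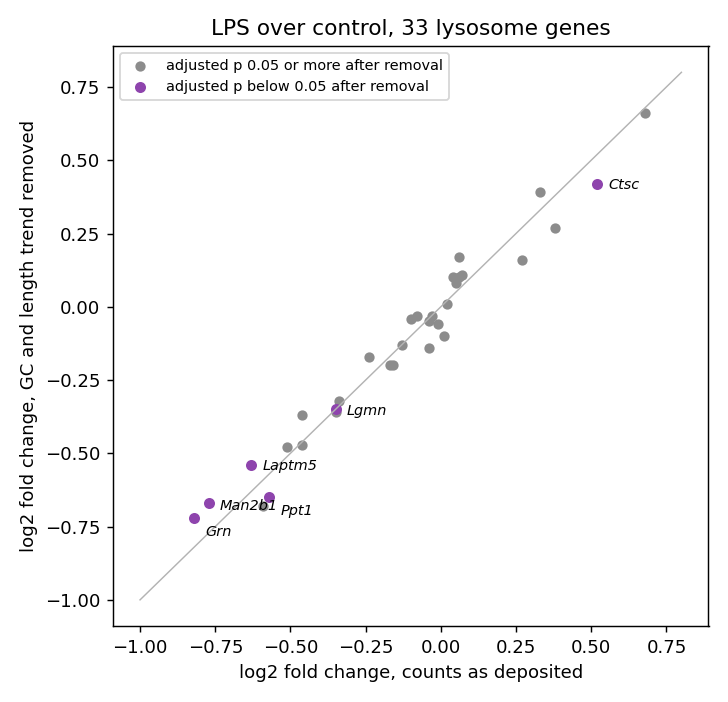
Log2 fold change (LPS over control) of the 33 lysosome genes from the counts as deposited (x axis) and after removal of a trend on GC content and length (y axis), with the line of equal values. Purple points, named, have an adjusted p below 0.05 after removal, Ctsc above 0 and Grn, Man2b1, Ppt1, Laptm5 and Lgmn below it.

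The 8 listed genes that did not pass the filter all had 2 or more records in the table. They were the proteases Ctsa and Ctss, the glycosidases Glb1 and Gaa, the lipid genes Psap and Lipa, the tetraspanin gene Cd63 and Tfeb. All 30 listed genes with 1 record passed, and 3 of the 11 with 2 or more did. Over all genes, 34.8% of those with 1 record and 6.09% of those with 2 or more had a record past the filter. The table counts records separately, and how reads shared by several records of a gene were handled is not given in the sources used here, so the part of this in the low counts was not tested.

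The counts of these genes can be set beside the bases that a record does not share with another record of its gene, read from the linked GENCODE transcripts on GRCm38. Cathepsin S is a main cysteine protease of microglia and macrophages, yet both records of Ctss, each with 3 exonic bases of its own, were at 0 in all libraries. Both records of Lipa, the acid lipase, were at 0 with at most 4 bases of their own. Psap, whose product is cut into the saposins that activate sphingolipid enzymes, had 6 records, of which NM_011179 had 0 and 1 raw counts with LPS and 2 and 5 in controls. A count of 0 allows up to 3 counts in a library, or 2.77 and 2.93 normalised counts with LPS and 4.22 and 2.53 in controls, which limits the reads given to these records and not the expression of the genes.

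Lamp2, by contrast, has records with many bases of their own. Its record NM_010685, with 2345 bases of its own, had 402 and 390 raw counts with LPS and 139 and 498 in controls. NM_001017959, with 510 such bases, had 38 and 35 with LPS and 16 and 60 in controls, and NM_001290485, with 925, had 1 and 2 with LPS and 0 and 4 in controls. In all 3 records with counts, control replicate 1 was the lowest library. Counts did not follow the number of own bases throughout, as the last of these records shows with 7 counts in all against 149 for the record with 510. Cd68 NM_001291058 had 68 and 64 raw counts with LPS and 63 and 86 in controls, with 0 own bases by the linked transcripts. Records of a gene that are linked to the same transcript have no own bases by this measure, whatever their own exons. In the other direction, Ctsa NM_008906 had 1140 own bases and 13 counts over the 4 libraries, Glb1 NR_108101 had 612 and 0, and the 3 Tfeb records had 245 to 291 and 0. Among the low genes Ctsa, the carboxypeptidase that protects neuraminidase, had 5 and 4 raw counts with LPS and 2 and 2 in controls, Cd63 had 2 and 1 with LPS and 1 and 1 in controls, Glb1, the beta-galactosidase, 2 and 1 with LPS and 0 in both controls, and Gaa, the acid alpha-glucosidase, 0 and 1 with LPS and 0 in both controls. No fold is given for these genes.

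**Figure D5:**
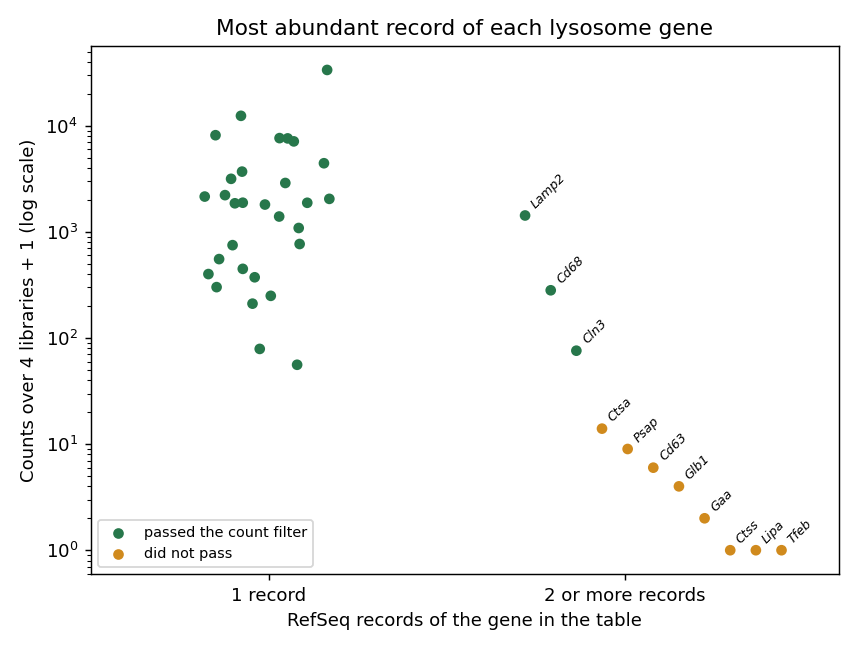
Counts over the 4 libraries plus 1 (log scale) of the most abundant record of each of the 41 lysosome genes, for genes with 1 record in the table (left) and with 2 or more (right). Green points passed the filter on low counts and orange points did not. All 30 genes with 1 record passed, and Lamp2, Cd68 and Cln3 are the 3 that passed among the 11 with more records.

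Lysosome genes outside the list gave 3 calls, all higher. Of 120 further genes of lysosomal enzymes, membrane proteins, pump subunits, sorting, nutrient sensing, autophagy and protease inhibitors, 83 passed the filter, of which 3 rose and 0 fell, against 3.82% of all records higher and 1.70% lower. Their median log2 fold change was -0.03. Tfec, which encodes a MiT/TFE factor found in macrophages (NM_031198, chromosome 6, 16830927 to 16898464 on GRCm38.p6), had 67.5 and 78.2 normalised counts with LPS against 16.9 and 24.5 in controls. The means were 72.9 ± 7.60 with LPS and 20.7 ± 5.37 in controls (SD, n = 2 each), and every LPS library was above every control. Tfec rose by 1.77 on the log2 scale (95% interval 1.11 to 2.43, adjusted p 0.00432). The other family members Mitf and Tfe3 have 3 and 6 records in the table, and their most abundant records had at most 4 and 1 raw counts in a library.

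Acp2, the lysosomal acid phosphatase, had 269 and 255 normalised counts with LPS against 125.2 and 116 in controls (log2 fold change 1.13, SE 0.199, adjusted p 0.00559). M6pr, the cation-dependent receptor that carries enzymes tagged with mannose 6-phosphate to lysosomes, had 986.5 and 1001 with LPS against 561 and 649.9 in controls (log2 fold change 0.71, SE 0.177, adjusted p 0.0385). Both genes had LPS libraries above both controls. The annotated span of Acp2 overlaps those of Ddb2 and Nr1h3, which had 25 and 1 counts over the 4 libraries. Without LPS replicate 1 or 2, where the control pair alone gives the spread, the adjusted p was 0.123 and 0.0895 for Acp2 and 0.587 and 0.686 for M6pr, while the log2 fold changes were 1.10 and 1.17 for Acp2 and 0.74 and 0.71 for M6pr.

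By role, 0 or 1 of the other lysosome genes passed in each group. Over all 83 tested the share was 3.61%, against 5.53% of all records. Of 10 further tested pump subunits 0 passed, with a median log2 fold change of 0.04, and Atp6v0b, the most abundant, had 1125.2 and 1084 normalised counts with LPS and 1151 and 837 in controls. Of 10 autophagy genes 0 passed, with a median of 0.03. Of 21 soluble enzymes Acp2 was the 1 that passed, and the median was -0.14. The most abundant of them, Ctsk, the collagen-degrading cathepsin K, had 2587 and 2464 with LPS and 2394 and 2631 in controls, and its interval ran from -0.38 to 0.39. Of 14 sorting genes M6pr was the 1 that passed, of 14 further membrane proteins 0 passed, and of 3 cystatin genes, inhibitors of cysteine cathepsins, 0 passed. At an unadjusted p below 0.05, where 15.4% of all records lay, there were 4 of the 21 soluble enzymes, 2 of the 14 sorting genes, 2 of the 14 membrane proteins, 1 of the 11 MiT/TFE and nutrient sensing genes, 1 of the 10 autophagy genes, 0 of the 10 pump subunits and 0 of the 3 cystatins.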

How the data were processed

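RNA-seq of 2 LPS-treated and 2 control BV-2 libraries was analysed, grouped by the sample titles. Directional libraries were made from RNA depleted of ribosomal RNA and read from both ends, per the labels' protocols. The deposited table is named as normalised but holds whole-number counts per RefSeq record with unequal totals, and these deposited counts were used as raw. The submitters' processing notes list HTSeq 0.6.1, TopHat2 2.0.10, Trimmomatic 0.33, Cufflinks 2.2.1, CASAVA 1.8.2 and the build mm10. The annotation release, the strand setting and how shared reads were treated: not given in the sources used here.

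RefSeq gene tables of GRCm38.p6 gave a symbol to 32487 of 32915 records. Records were filtered with filterByExpr (minimum count 10), scaled by TMM and tested with edgeR 4.0.16 (R 4.3.3), quasi-likelihood, Benjamini-Hochberg over 6981 records, threshold 0.05. Normalised counts are counts over the effective library size times its mean, 3119862. Intervals are 95%, from the same fit, and the common coefficient of variation was 15.8%. Alternatives used DESeq2 1.42.0, limma 3.58.1 and a loess trend (span 0.5) on GC content and length, known for 99.2% of records, whose fit was not charged to the degrees of freedom. The scripts were tested on simulated counts whose random spread was set below that of these data. That checks the code and not the error rates here. Floors cover counting error only, since reads without molecular identifiers are not independent molecules. Annotated spans of Ppt1, Ctsb, Asah1, Npc1, Ctsz, Cln3, Atp6v1b2, Hexa and Acp2 overlap other genes with counts. Members and lists were chosen with earlier results of these data known. Named were called genes, in each role the 3 most abundant and the extremes of change, all below the filter, and MiT/TFE factors.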

Additional observations from a re-analysis of the deposited data

How the results depend on the processing

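The absence of calls among the 33 lysosome genes held with DESeq2 size factors, TMM without the 5 most abundant records, a minimum mean of 50, the DESeq2 Wald test, limma-voom and counts summed per gene. Without a filter on low counts 1 of 38 genes was lower (Grn, adjusted p 0.0231), where 365 of 13081 records were higher and 209 lower. With the GC content and length trend removed 1 of 33 was higher and 5 lower, where 6.63% of all records were higher and 4.17% lower. Leaving out 1 library gave 0 to 3 higher and 0 to 8 lower, and a median from -0.13 to -0.05, in fits where 1 group is a single library and the other alone gives the spread. The titles number the libraries 1 and 2 in both groups, but do not say that a number marks a shared culture or day, and deviations of same-numbered libraries had a correlation of 0.23. With the replicate number as a block, 1 of 33 listed genes was higher and 3 lower, and 5 of 83 other lysosome genes were higher and 1 lower. Over all 6981 records, 401 were higher and 288 lower in that fit.

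Over all records, 267 were higher and 119 lower. These became 170 and 51 where records needed a mean of 50 or more, 459 and 289 with the GC and length trend removed, 209 lower without a filter and 66 lower in the DESeq2 Wald test, and ranged from 165 to 723 higher and 39 to 581 lower with 1 library left out. Other lysosome genes were 1 to 10 higher and 0 to 11 lower with 1 library left out, and 2 were lower with the GC and length trend removed. The cause was not tested.

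Directions changed for genes that had not passed with all libraries. Gla was at 0.00 with TMM without the 5 most abundant records and 0.02 without a filter, Lamp1 at 0.00 without a filter and Ctsl at -0.10 with the trend removed. With 1 library left out, log2 fold changes ran from -0.13 to 0.31 for Gusb, -0.38 to 0.23 for Hexa, -0.05 to 0.05 for Gla, -0.29 to 0.48 for Neu1, -0.06 to 0.18 for Npc2, -0.22 to 0.19 for Asah1, -0.13 to 0.79 for Smpd1, -0.23 to 0.07 for Ctsb, -0.10 to 0.13 for Ctsl, -0.10 to 0.20 for Ctsz, -0.07 to 0.01 for Lamp1, -0.15 to 0.94 for Lamp2, -0.38 to 0.12 for Atp6v1a, -0.06 to 0.10 for Atp6ap1 and -0.10 to 0.01 for Atp6v0d1. Tfec kept its call under each alternative that tested it, with a log2 fold change from 1.58 to 2.09. Low counts limit Atp6v0d2, Smpd1 and Cln3.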
